A study of Mus musculus with 8 samples.

Results

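The 2 metallothionein genes Mt1 and Mt2, the metal sensor Mtf1 and 6 zinc transporters, Slc30a1, Slc30a10, Slc39a14, Slc39a8, Slc39a4 and Slc39a5, were followed mouse by mouse in the liver. These 9 genes were matched by symbol among the 55487 genes of the count tables, and all 9 passed the filter on low counts, which kept 13400 genes for testing. They were chosen by role and by the counts of these same libraries, in which Mt1 and Mt2 were already known to be higher in the knockout, so differences between genotypes within the set are described without a test. The question was whether the genes that bring zinc into the cell, take it out and sense it moved with Mt1 and Mt2 across mice.

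RNA sequencing covered the livers of 4 control mice and 4 hepatocyte-specific Mc1r knockout (Mc1r LKO) mice, all of them male and all fed a cholesterol-rich Western diet for 12 weeks from 8 weeks of age. Both groups had loxP-flanked Mc1r on both chromosomes (Mc1r fl/fl), and the Mc1r LKO mice also carried a Cre recombinase transgene under the albumin promoter, which is active in hepatocytes. The controls were described as age-matched Mc1r fl/fl mice, so any effect of the Cre transgene itself and the effect of losing Mc1r cannot be told apart. Total counts were between 10773151 and 24763375 per mouse, and Mc1r itself had 0 counts in all 8 libraries, where 3 counts correspond to 0.121 to 0.278 CPM (counts of a gene per 1000000 counts of its library), so these data give no check of the deletion. On the first principal component, which held 37.6% of the variance, Mc1r LKO mouse 182 lay at 59.3 and control mouse 181 at 27.8, whereas the other 6 mice lay between -28.2 and -7.03. The differences and relations below that moved most with mouse 182 are therefore given with and without it. Hepatocyte markers (Alb, Ttr, Apoa1, Hnf4a, Asgr1 and Cyp2e1) summed to between 71504 and 101669 CPM. Of the 4 pancreatic acinar markers, Cpa1, Pnlip and Cel had 0 counts in every mouse. The remaining marker passed the filter on low counts and alone gave that list a sum of 8.77 to 14.5 CPM over the 8 mice.

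Metallothioneins are small, cysteine-rich proteins that hold zinc, copper and cadmium in the cytosol, and the liver is among their main sites of synthesis. The transcription factor MTF1 senses free zinc, binds metal response elements near the start of the metallothionein genes and of Slc30a1, and raises their transcription. Metallothionein transcription in hepatocytes is also known to respond to glucocorticoids and to interleukin 6. Members of the SLC30 (ZnT) family move zinc out of the cytosol, and members of the SLC39 (ZIP) family move it in, from outside the cell or from vesicles.

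The promoter sequences show which genes of the set carry the letters that MTF1 recognises. The metal response element core was searched as TGCACNC or TGCGCNC on both strands in the 250 bases before the RefSeq transcript start (build GRCm38.p6), which were given for 7 of the 9 genes. Slc39a14 and Slc39a4 had no entry. The windows of the metallothioneins and the exporters, in which cores were found in every case, are printed with the cores in capitals, and a core on the opposite strand appears as its reverse complement.
Mt1, chr8:94178839-94179088, plus strand: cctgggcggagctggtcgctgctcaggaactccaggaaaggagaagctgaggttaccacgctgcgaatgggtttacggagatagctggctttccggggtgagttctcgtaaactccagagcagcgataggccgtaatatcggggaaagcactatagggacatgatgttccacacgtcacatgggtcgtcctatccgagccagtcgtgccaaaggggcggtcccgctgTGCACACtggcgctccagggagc
Mt2, chr8:94172368-94172617, plus strand: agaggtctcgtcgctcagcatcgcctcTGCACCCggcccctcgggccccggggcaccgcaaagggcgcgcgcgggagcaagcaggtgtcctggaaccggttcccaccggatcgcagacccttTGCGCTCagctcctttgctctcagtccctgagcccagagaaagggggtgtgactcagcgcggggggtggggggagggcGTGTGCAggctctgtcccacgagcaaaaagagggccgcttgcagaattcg
Slc30a1, chr1:191906531-191906780, plus strand: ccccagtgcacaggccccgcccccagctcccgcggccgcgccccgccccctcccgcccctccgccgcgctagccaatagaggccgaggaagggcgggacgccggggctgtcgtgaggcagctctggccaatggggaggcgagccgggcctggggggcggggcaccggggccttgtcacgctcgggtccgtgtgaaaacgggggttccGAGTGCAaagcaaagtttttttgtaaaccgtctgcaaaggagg
Slc30a10, chr1:185454598-185454847, plus strand: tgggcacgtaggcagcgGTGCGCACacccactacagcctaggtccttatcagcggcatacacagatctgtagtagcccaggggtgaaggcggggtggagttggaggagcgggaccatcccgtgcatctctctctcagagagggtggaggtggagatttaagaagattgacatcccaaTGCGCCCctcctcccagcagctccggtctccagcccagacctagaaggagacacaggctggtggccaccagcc
Mt2 carried 3 cores, whose first bases lay 223, 128 and 50 bases before the start, the last of them on the opposite strand. Slc30a10 also carried 3, of which 2 overlapped on opposite strands and so share one run of capitals. Mt1 carried 1 core, 23 bases before the start, and Slc30a1 carried 1 on the opposite strand, 43 bases before it. Mtf1 carried 0, and of the pair of starts listed for each of Slc39a8 and Slc39a5, 1 held a single core. Of all 32851 mouse windows of this length, 21.4% held at least 1 core and 1.26% held at least 3. Both counts depend on where the start is placed. In the first 250 bases of the principal transcripts annotated by GENCODE, Mt1 held 4 cores and Mt2 held 3, whereas 0.206% and 0.943% of 29174 principal transcripts held at least 4 and at least 3. Slc30a10 and Slc30a1 held 1 core each there, beside 23.2% of principal transcripts with at least 1. Mtf1, Slc39a8, Slc39a5, Slc39a14 and Slc39a4 held 0. The glucocorticoid response element, searched as AGAACA, 3 free bases and TGTTCT, was in 0 of the windows of these genes and in 0.00913% of all windows, and no match says only that these letters are not in this window. The antioxidant response element, TGAC followed by 3 free bases and GC, was found once in the Mt2 and Slc30a1 windows, in 1 of the windows of each of Slc39a8 and Slc39a5 and in 10.2% of all windows. A match is a description of the letters and does not show that a factor binds there.

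Mt1 mRNA was low in the controls and higher in every Mc1r LKO liver. Mt1 (ENSMUSG00000031765, GRCm38 chr8:94179082-94180327, plus strand, 3 exons) stood at 16.5, 16.1, 6.93 and 15.9 CPM in control mice 154, 159, 181 and 193 and at 28.9, 49.0, 39.3 and 177 CPM in Mc1r LKO mice 141, 156, 157 and 182. Mt2 (ENSMUSG00000031762, chr8:94172664-94173568, plus strand, 3 exons), which ends 5513 bases before Mt1 begins, stood at 7.02, 11.7, 3.44 and 10.2 CPM in the controls and at 14.8, 25.9, 22.0 and 155 CPM in the Mc1r LKO mice, in the same order. For both genes the lowest Mc1r LKO mouse was above the highest control, mouse 181 was the lowest of the 8 mice, and mouse 182 stood far above the other 3 of its genotype. The control mean was 13.9 ± 4.62 CPM (SD, n = 4) for Mt1 and 8.10 ± 3.67 for Mt2, and the Mc1r LKO mean was 73.5 ± 69.3 for Mt1 and 54.5 ± 67.3 for Mt2.

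In log2 terms the Mc1r LKO livers were higher by 2.41 (SE 0.56) for Mt1 and by 2.77 (SE 0.74) for Mt2. Without mouse 182 these differences fell to 1.51 (SE 0.27) and 1.39 (SE 0.34), with Mc1r LKO means of 39.1 ± 10.0 and 20.9 ± 5.65 CPM over 3 mice. Mouse 182 alone had 12.8 times the control mean of Mt1 and 19.1 times that of Mt2, against 2.09 to 3.54 times and 1.83 to 3.20 times in the other Mc1r LKO mice. Its hepatocyte markers summed to the highest value of the 8 mice, 101669 CPM, and its markers of Kupffer cells (Clec4f, Adgre1, Cd5l and Vsig4) to the lowest, 152 CPM, against 220 to 486 CPM in the controls and at most 309 CPM in the Mc1r LKO group. It was also the lowest of the 8 mice for the summed markers of stellate cells, at 155 CPM against 159 to 305 CPM in the controls, of endothelial cells, at 57.8 CPM against 77.1 to 92.9 CPM, and of adipocytes, at 35.1 CPM against 100 to 183 CPM, and for the enterocyte list, whose genes Fabp2 and Apoa4 are also expressed in liver, at 3527 CPM against 4801 to 8529 CPM. None of these lists had a marker called between the genotypes (0 of each), beside 5.31% of all genes tested. With so few markers per list, nothing is read from that count. The median log2 difference was 0.14 for the hepatocyte list, -0.48 for Kupffer cells, -0.12 for stellate cells, -0.16 for endothelial cells, -0.47 for adipocytes and -0.12 for the enterocyte list. Only 1 of the 3 adipocyte markers passed the filter on low counts, so that sum rests mostly on that gene and does not measure adipocyte number. In bulk tissue, fewer cells of a type and less RNA per cell cannot be told apart, and the part of cell make-up in the metallothionein values of mouse 182 was not tested. Mt1 lies 29.2 Mb from Mc1r on the same chromosome.

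**Figure D1:**
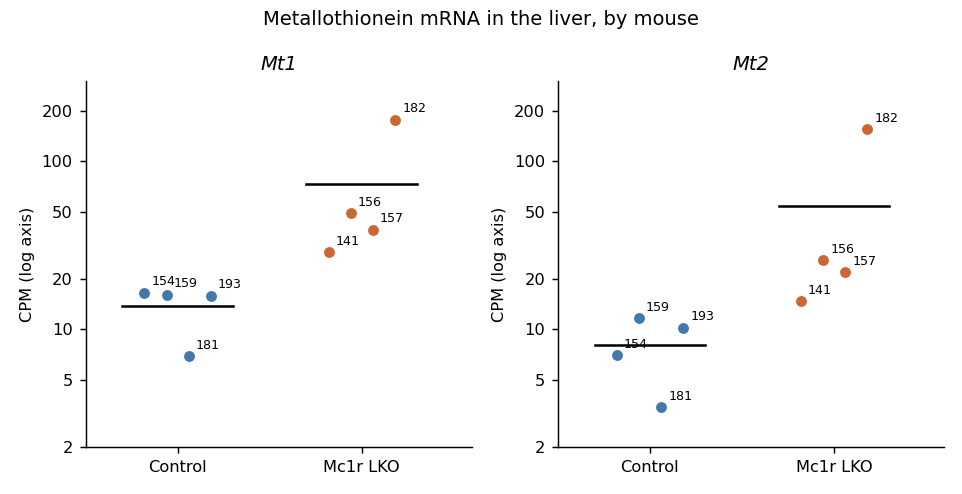
Mt1 and Mt2 in every mouse, in CPM on a log axis, with the mouse number beside each point and the group mean as a line. The 4 Mc1r LKO mice sit above the 4 controls for both genes, mouse 181 is lowest and mouse 182 is far above the rest.

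Within genotypes Mt1 and Mt2 varied together from mouse to mouse, which is separate from the difference that put them on the list. As deviations of log2 CPM from the genotype mean, they had a Pearson r of 0.98 over the 8 mice (exact permutation test over all within-genotype pairings, two-sided p = 0.00868, smallest possible 0.00174) and a Spearman rho of 0.93 (exact permutation p = 0.0139). Without mouse 182 r was 0.92 (exact permutation p = 0.0347), and without mice 182 and 141, the pair whose Mt1 deviations lay farthest from the median, it was 0.90 over 6 mice. The ratio between them was less constant than their direction. There were 2.36, 1.37, 2.02 and 1.55 counts of Mt1 for each count of Mt2 in the controls and 1.95, 1.89, 1.78 and 1.14 in the Mc1r LKO mice, so mouse 182 had the lowest ratio as well as the highest total. Summed, the pair stood at 10.0 to 27.8 CPM in the controls and at 44.5 to 302 CPM in the Mc1r LKO mice, scaled by the library total alone. The 2 genes are paralogs, and reads that fit both could have been lost in counting.

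Mtf1, the metal sensor, showed no such separation. It stood at 15.6, 14.9, 19.0 and 15.6 CPM in the controls and at 15.3, 13.9, 15.9 and 20.7 CPM in the Mc1r LKO mice. Mouse 182 was the highest and mouse 181 the next, although they were at opposite ends for the metallothioneins. The log2 difference for Mtf1 (ENSMUSG00000028890, chr4:124802104-124849800, plus strand) was 0.02 (SE 0.14) with all mice and -0.11 without mouse 182.

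The exporters overlapped between the genotypes. Slc30a1 (ENSMUSG00000037434, chr1:191906767-191913247, plus strand), the plasma membrane zinc exporter that MTF1 is known to induce, stood at 28.1, 23.9, 27.4 and 26.3 CPM in the controls and at 22.3, 21.8, 24.4 and 27.1 CPM in the Mc1r LKO mice. Its groups overlapped, and its log2 difference of -0.15 (SE 0.10) was opposite in sign to those of Mt1 and Mt2 and stayed between -0.21 and -0.10 when any single mouse was left out. Slc30a10 (ENSMUSG00000026614, chr1:185454848-185468762, plus strand), grouped with the zinc exporters by sequence and known mainly for exporting manganese, stood at 60.2, 37.5, 66.3 and 34.6 CPM in the controls and at 31.8, 43.7, 53.8 and 76.9 CPM in the Mc1r LKO mice. The groups overlapped, and its log2 difference of 0.06 (SE 0.28) became -0.20 without mouse 182.

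Of the importers, Slc39a14 (ENSMUSG00000022094, chr14:70303469-70351425, minus strand), which carries zinc, iron and manganese into hepatocytes, stood at 118, 176, 178 and 144 CPM in the controls and at 147, 153, 128 and 233 CPM in the Mc1r LKO mice. Only mouse 182 lay outside the range of the controls, and the log2 difference of 0.10 (SE 0.19) became -0.11 without it. Slc39a8 (ENSMUSG00000053897, chr3:135825279-135888572, plus strand), which carries zinc and manganese, varied little, from 23.2 to 26.3 CPM in the controls and from 25.3 to 28.4 CPM in the Mc1r LKO mice, with a log2 difference of 0.09 (SE 0.08). Slc39a4 (ENSMUSG00000063354, chr15:76612383-76617384, minus strand), best known as the intestinal zinc importer, stood at 17.6, 27.0, 27.3 and 51.3 CPM in the controls and at 34.6, 32.0, 28.0 and 42.5 CPM in the Mc1r LKO mice. Control mouse 193 was the highest of all, and the log2 difference of 0.15 (SE 0.28) was 0.53 without that mouse and -0.04 without control mouse 154.

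Slc39a5 (ENSMUSG00000039878, chr10:128395931-128401229, minus strand), an importer of the basolateral membrane, was the least evenly expressed transporter of the set. It stood at 7.23, 3.81, 1.25 and 4.28 CPM in the controls and at 7.88, 8.51, 6.54 and 1.79 CPM in the Mc1r LKO mice. The lowest values were those of mice 181 and 182, which lay at opposite ends for Mt1 and Mt2, and the other 3 Mc1r LKO mice overlapped with the highest control. Its log2 difference was 0.57 (SE 0.53) and ranged from 0.26 without control mouse 181 to 0.99 without control mouse 154, with 0.88 without mouse 182. Slc39a5 had 24 counts in mouse 181 and 35 in mouse 182, which limits the precision of both values.

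**Figure D2:**
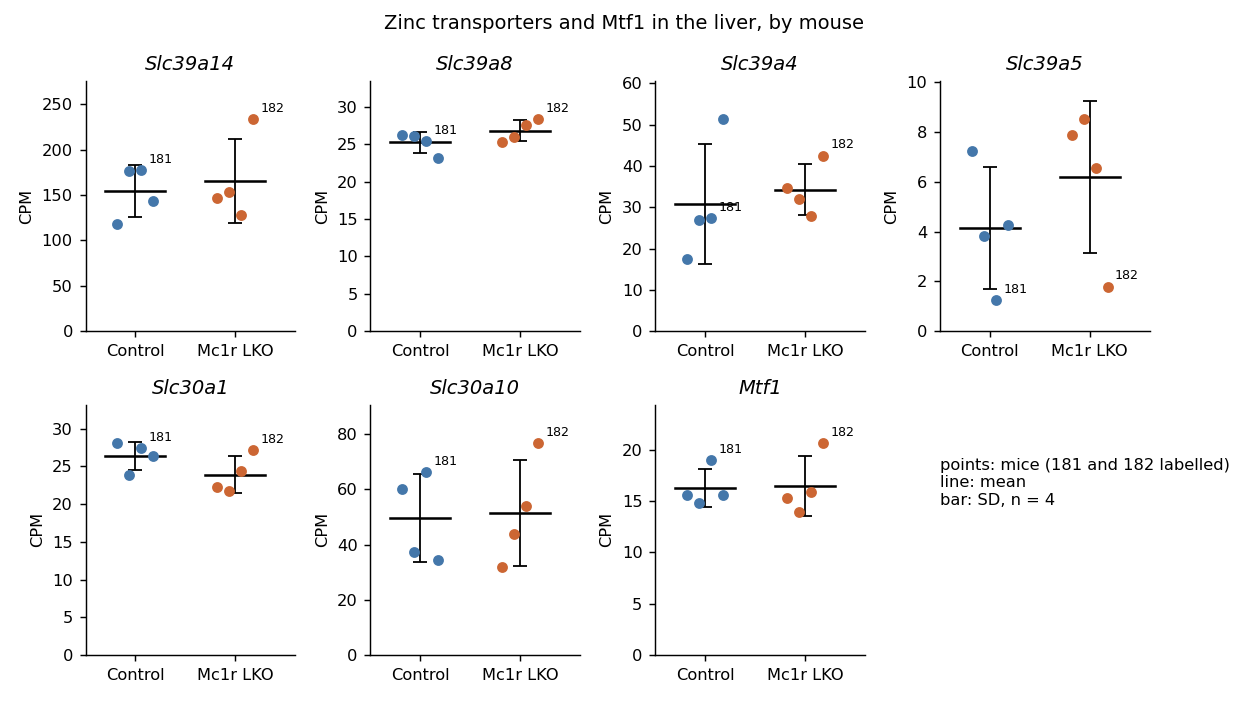
The 6 transporters and Mtf1 in every mouse, in CPM on linear axes from 0, with the group mean as a line and the SD over 4 mice as a bar. The genotypes overlap in every panel, and mouse 182 is the highest Mc1r LKO mouse for each gene but Slc39a5, where it is the lowest.

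Counted by genotype, Mt1 and Mt2 were the 2 genes of the 9 that passed an unadjusted p of 0.05 with a log2 difference of at least 0.25, both in the higher direction, against 5.31% of all genes tested (2.64% higher and 2.66% lower, and 6.72% by the p alone). Because the same difference put them on the list, nothing is read from that count. At an adjusted p of 0.05 by edgeR's quasi-likelihood test, 0 of 13400 genes passed (0%), 901 genes had an unadjusted p under 0.05, and DESeq2 called 16 genes at its adjusted p of 0.05. Genotypes did not overlap for Mt1 and Mt2 and overlapped for the other 7 genes, and 4.16% of all genes tested did not overlap (2.63% with the Mc1r LKO mice higher). The 7 genes other than the metallothioneins had log2 differences between -0.15 and 0.57, with a median of 0.09, beside a median of -0.01 over all genes tested.

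**Figure D3:**
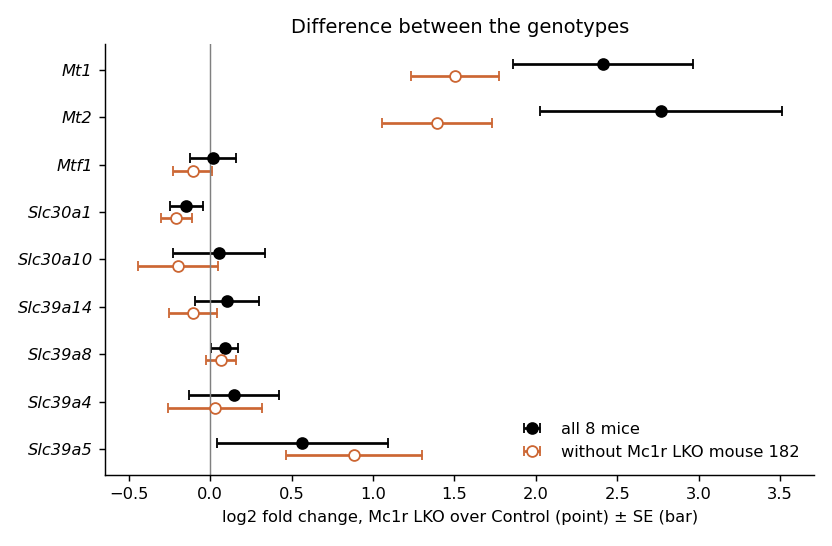
The log2 difference between Mc1r LKO and control livers for each gene, as a point with its standard error as a bar, with all 8 mice (filled) and without mouse 182 (open). Mt1 and Mt2 stand to the right in both, at 2.41 and 2.77 and at 1.51 and 1.39, and the other 7 genes lie between -0.21 and 0.88.

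Within genotypes, no gene of the set was found to follow Mt1 and Mt2. The mean of the Mt1 and Mt2 log2 CPM was taken as the metallothionein level of a mouse, and each of the other 7 genes was set against it as deviations from the genotype means, so that the difference between genotypes did not enter. The Pearson r was 0.57 for Slc39a14 (exact permutation p = 0.194), 0.47 for Slc30a1 (exact permutation p = 0.394), 0.41 for Slc39a8, 0.40 for Mtf1, 0.35 for Slc30a10, 0.34 for Slc39a4 and -0.34 for Slc39a5. All 7 relations had an exact permutation p of 0.457 after Benjamini-Hochberg adjustment, and 0 of them had an unadjusted p under 0.05. Spearman's rho was between -0.38 for Slc39a5 and 0.52 for Slc39a8, with an adjusted exact permutation p of 0.889 for each gene. The power of this test with 8 mice was not computed, and a p that misses the threshold does not show that the genes are unrelated.

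Mouse 182 set the sign of most of these values. It was the highest of the 8 mice for Mt1, Mt2, Mtf1, Slc30a10, Slc39a14 and Slc39a8, and without it r fell to -0.91 for Mtf1 (exact permutation p = 0.0486, adjusted 0.340), -0.43 for Slc30a10, -0.41 for Slc30a1, -0.29 for Slc39a14 and -0.02 for Slc39a8. Slc39a5 turned the other way, to 0.74, with its low level in mouse 182 left out. Slc39a4 was the gene whose r kept its sign, at 0.13. Mouse 181 pulled in the opposite direction. It had the lowest Mt1 and Mt2 but the second highest Mtf1, Slc30a1, Slc30a10 and Slc39a14, and without it r was 0.84 for both Mtf1 and Slc39a14 and -0.92 for Slc39a5, with adjusted exact permutation p values of 0.222, 0.170 and 0.170. Without mice 182 and 141, whose metallothionein deviations lay farthest from the median, r over the other 6 mice was -0.95 for Mtf1, -0.80 for Slc30a10, -0.53 for Slc30a1, -0.27 for Slc39a14, -0.20 for Slc39a8, 0.21 for Slc39a4 and 0.82 for Slc39a5. The positive values of Mtf1, Slc30a1, Slc30a10, Slc39a14 and Slc39a8 and the negative value of Slc39a5 therefore rest on mouse 182.

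**Figure D4:**
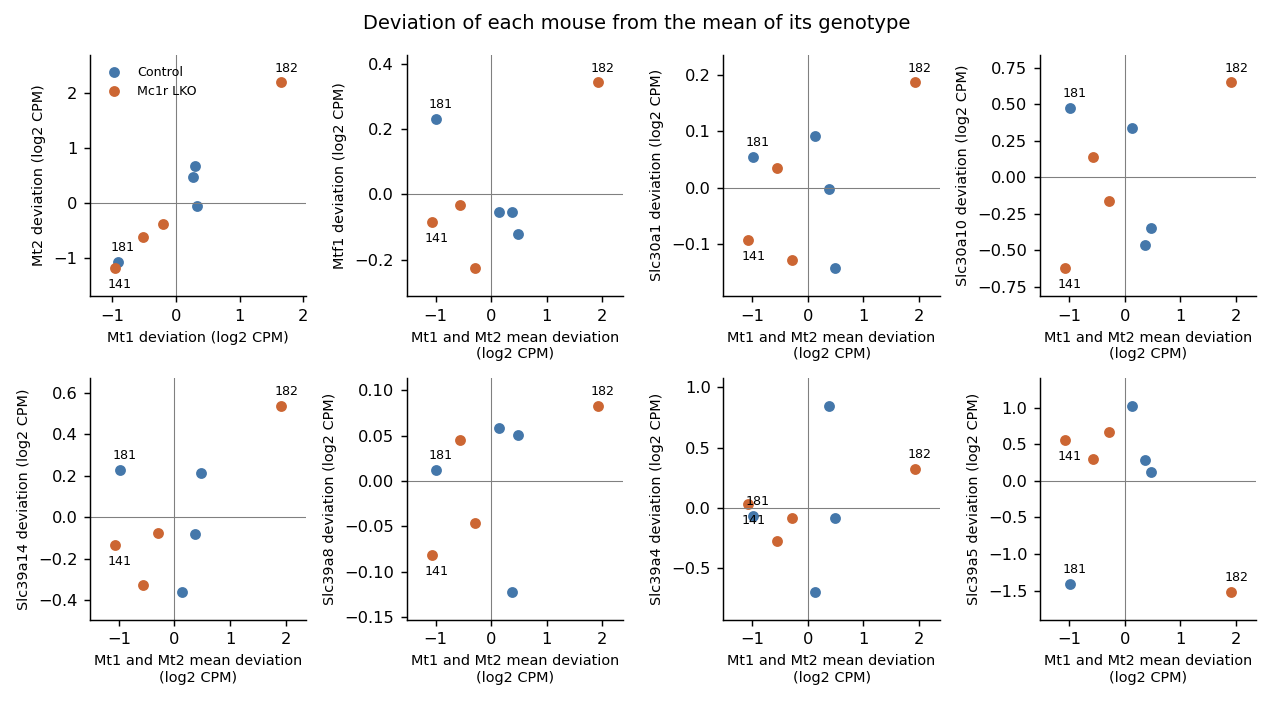
Deviation of each mouse from the mean of its genotype in log2 CPM, for Mt2 against Mt1 in the first panel and for the other 7 genes against the mean of Mt1 and Mt2. The Mt1 and Mt2 points follow a line (r = 0.98). In the other panels mouse 182 lies alone on the right, and mice 141 and 181 lie farthest left, at unlike heights in several panels. No line is followed there.

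The metallothioneins were among the genes that varied most between mice of one genotype. The SD of log2 CPM within genotypes was 1.19 for Mt2, 1.02 for Slc39a5 and 0.92 for Mt1, larger than for 98.8%, 97.8% and 96.7% of all genes tested, whose median was 0.23. Without mouse 182 it was 0.66 for Mt2, 0.80 for Slc39a5 and 0.53 for Mt1, still above that of 92.7%, 96.4% and 87.1% of genes. Slc30a10 and Slc39a4 followed with 0.50 and 0.48, and Slc39a14 with 0.33. Mtf1, at 0.20, was close to the median gene. Slc30a1 at 0.12 and Slc39a8 at 0.08 were steady, with a smaller SD in only 15.7% and 3.98% of genes. The zinc exporter and the zinc importer Slc39a8 thus differed by little between livers in which Mt1 ranged from 6.93 to 177 CPM.

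Levels of different genes were compared per kb of exon. In the controls Slc39a14 stood at 14.6 ± 2.7 CPM per kb (SD, n = 4), Mt2 at 13.8 ± 6.25, Mt1 at 11.1 ± 3.71, Slc39a4 at 9.92 ± 4.64 and Slc30a10 at 7.63 ± 2.45, neighbours in this order whose means differed by less than their spread. Slc30a1 followed at 5.04 ± 0.353, Slc39a8 at 3.29 ± 0.188, Slc39a5 at 1.86 ± 1.10 and Mtf1 at 1.83 ± 0.210. In the Mc1r LKO livers Mt2 and Mt1 came first, at 92.6 ± 114 and 59.0 ± 55.6 CPM per kb, ahead of Slc39a14 at 15.7 ± 4.41. Without mouse 182 they were at 35.6 ± 9.6 and 31.3 ± 8.07, ahead of Slc39a14 at 13.5 ± 1.20. The exon length given for Mt1 in the tables spans its introns too. With the length of the principal transcript, an alternative chosen after seeing the data, the control level of Mt1 was 25.2 CPM per kb against 15.9 for Mt2 and 31.3 for Slc39a14, so the order of the pair depends on the length used.

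No further gene of either zinc transporter family was called between the genotypes. Of the 18 Slc30a and Slc39a genes outside the set, 14 were tested, 6 were above 0 and 8 below, 0 passed an unadjusted p of 0.05 with a log2 difference of at least 0.25 by edgeR, and DESeq2 and limma-voom also called 0. The share over all genes tested was 5.31%, so a count of 0 of 14 is near the background. Their median log2 difference was -0.01, the same as over all genes tested. The 5 Slc30a genes lay between -0.06 and 0.07 and the 9 Slc39a genes between -0.45 and 0.35. Per kb of exon, the plasma membrane importer Slc39a1 was the most abundant of the 20 family members tested, with 23.8 to 30.0 CPM per kb and a mean of 28.0, followed by Slc39a14 at 15.1, Slc39a4 at 10.5, Slc39a11 at 9.58, Slc30a10 at 7.78 and Slc39a9 at 6.71. Slc30a5 at 5.31 and Slc30a9 at 4.93 lay beside Slc30a1 at 4.80, and Slc30a6 at 3.40 beside Slc39a8 at 3.40. Slc30a2, Slc30a3, Slc30a8 and Slc39a12 did not pass the filter on low counts. The other metallothioneins, Mt3 and Mt4, had 0 counts in every mouse, below a limit of 0.121 to 0.278 CPM.

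**Figure D5:**
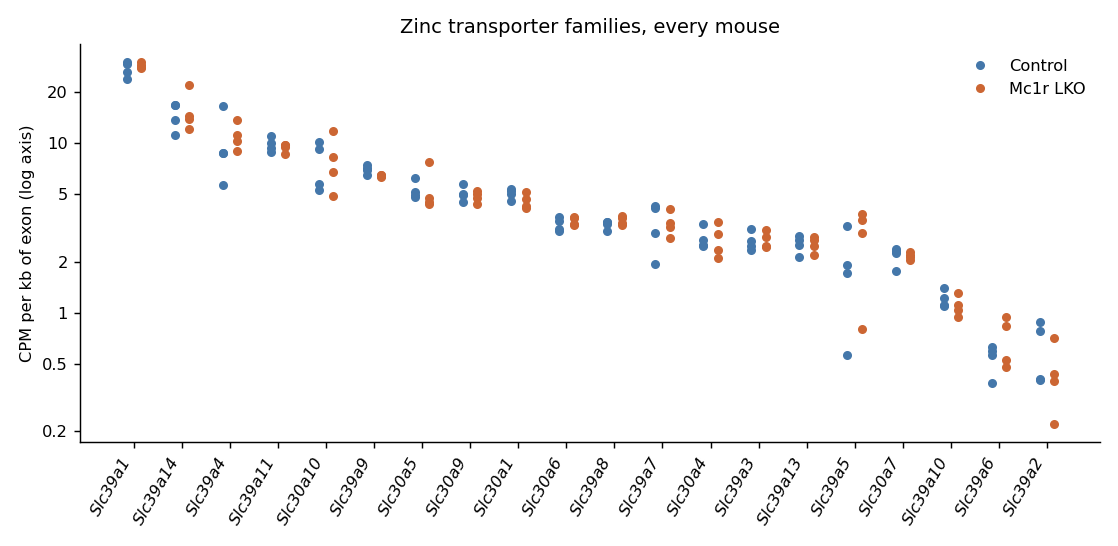
Level of each tested Slc30a and Slc39a gene in every mouse, in CPM per kb of exon on a log axis, ordered by the mean over 8 mice. The genotypes overlap throughout, Slc39a1 is the most abundant at a mean of 28.0, and Slc39a5 has the widest spread.

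Of the 20 tested genes of metal handling outside zinc transport, 1 was called, beside 5.31% of all genes tested. All 10 copper handling genes were tested, with 6 above 0, a median of 0.12 and 0 called in either direction. All 5 other genes reported to depend on MTF1 (Gclc, Ndrg1, Csrp1, Selenow and Selenoh) were tested, with 4 above 0, a median of 0.12 and 0 called. Of the 6 heavy metal and oxidant stress genes, 5 were tested, with a median of 0.05 and 1 called lower. That gene was Hmox1, heme oxygenase, which heavy metals and oxidants induce, at 38.7, 46.4, 30.1 and 34.7 CPM in the controls and 21.2, 32.4, 34.0 and 22.2 CPM in the Mc1r LKO mice. The groups overlapped, its log2 difference was -0.44 (SE 0.18), and edgeR's quasi-likelihood test gave an unadjusted p of 0.0363 and an adjusted p of 0.734. Over the 20 genes, 13 were above 0, 0 were called higher and 1 was called lower, beside 2.64% and 2.66% of all genes tested. The number called in either direction was 0 when mouse 154, 141 or 182 was left out and 2 when mouse 159 or mouse 181 was, and without mouse 159 Hmox1 was not among them.

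The 2 other inputs known to raise metallothionein transcription were set beside these genes by lists. Of 7 glucocorticoid-induced genes, 7 were above 0 and 5 were called higher, beside 2.64% of all genes tested. They were Fkbp5 at a log2 difference of 1.09, Zbtb16 at 1.00, Tsc22d3 at 0.93, Cebpd at 0.82 and Per1 at 0.76, with a list median of 0.82 and adjusted p values in edgeR of at least 0.118. This list was known to be higher in these libraries when it was chosen, so nothing is read from its count. Of 10 acute phase genes, 4 were above 0 and 0 were called, with a median of -0.23. Within genotypes, neither list was found to follow Mt1 and Mt2. The median r with the metallothionein level was -0.31 for the glucocorticoid list, with 3 of 7 genes above 0, and 0.24 for the acute phase list, with 9 of 10 above 0. Without mouse 182 these medians were -0.55, with 3 of 7 above 0, and 0.52, with 8 of 10 above 0. Of 51 relations computed in this way, 0 had an adjusted exact permutation p under 0.05, and the lowest unadjusted values belonged to Socs3, a target of interleukin 6 signalling, at r = 0.66 (exact permutation p = 0.0156, adjusted 0.708, and r = 0.52 without mouse 182), and Cebpd at r = -0.76 (exact permutation p = 0.0278, adjusted 0.708, and r = -0.61 without mouse 182).

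Among all genes, those whose pattern over the 8 mice was most like the mean of Mt1 and Mt2 were Mon1a, with r = 0.95, and Rrbp1, Med21, Il6ra and Fgf1, each with r = 0.93. These values describe 8 libraries that share the genotype difference and mouse 182, and without that mouse they were 0.80 to 0.89. Il6ra, the interleukin 6 receptor, had a log2 difference of 0.70, Fgf1 one of 0.45 and the other 3 between 0.10 and 0.23. By deviations from the genotype means, the most alike were Prdm15, AU041133, 2810006K23Rik, Lbhd1 and Rrbp1, at r = 0.94 to 0.95. By r over the 8 mice Slc39a8 ranked 744 of 13400, Slc39a14 1795, Slc39a4 2201, Mtf1 3600, Slc30a10 3776, Slc39a5 6258 and Slc30a1 8474. By deviations from the genotype means Slc39a14 ranked 1140, Slc30a1 1974, Slc39a8 2449, Mtf1 2503, Slc30a10 2972, Slc39a4 3151 and Slc39a5 10068. Of 249 tested genes outside the set with at least 3 metal response element cores in a promoter window, 6 were called higher (2.41%, beside 2.64% of all genes tested) and 3 lower.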

How the data were processed

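Total liver RNA of each mouse was made into a stranded mRNA library. The authors trimmed the reads with Trim Galore 0.6.6, aligned them with STAR 2.7.6a and counted them with Subread 2.0.1, as the submitters' processing notes name them, and deposited raw counts of read pairs per gene, unfiltered and not normalized, on GRCm38 by strand, 1 table per mouse. Groups came from the sample labels. Symbols matched 55141 of 55487 gene identifiers, and genes without one held 0.0267 to 0.0408% of counts.

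The deposited counts were passed through filterByExpr with its defaults (minimum count 10 and total 15), scaled by TMM and tested by the quasi-likelihood test of edgeR 4.0.16 (R 4.3.3) with genotype as the only term, and p-values were adjusted by Benjamini-Hochberg over the 13400 genes kept. The study's methods give the filter and the normalization. Its statistical test for sequencing is not given in the sources used here. CPM values are TMM-normalized, with the same scaled library sizes used for genes not kept, and log2 CPM carries a prior count of 2. Library totals alone were used for the CPM of 3 counts and for the summed Mt1 and Mt2 values. A call required an unadjusted p under 0.05 and an absolute log2 difference of at least 0.25. Fold change errors are standard errors, computed as the log2 fold change over the square root of its F statistic. Relations across mice used exact permutation within genotypes. In simulated counts for 13205 genes, 90 of 95 tested genes changed 4-fold and 61 of 99 changed 2-fold were called at an adjusted p under 0.05. In the measured counts the fitted differences were 5.32-fold for Mt1 and 6.82-fold for Mt2. Neither gene was called at an adjusted p under 0.05 by edgeR's quasi-likelihood test, which called 0 of the 13400 genes. The simulated shares therefore do not give the share of such changes that would be called in these libraries. The total count per mouse and 4 mice per group set the precision. No mice of a genotype agreed within sampling noise (chi-square over its degrees of freedom at least 11.9), so each counted as 1 replicate.

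The 9 genes, the wider lists and the tests were chosen with earlier results of these data known. Named were all 9 genes, the called genes of each list, the 3 most abundant other members of each transporter family per length, and the 5 genes most like Mt1 and Mt2 by each measure. Other genes are named as members of a list or as markers. Alternatives were RLE, upper quartile and library size scaling, other filters, DESeq2 1.42.0, limma-voom (limma 3.58.1), another prior count and each mouse left out.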

Additional observations from a re-analysis of the deposited data

Results flagged for a closer look

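Each of the 9 genes was checked in both genotypes, 18 groups of 4 mice, for a value apart from the others. In 4 groups Dixon's test at the 95% level flagged such a value, where about 0.9 would be expected of normally distributed values. The share flagged over all genes tested was not computed. All 4 values came from mice 181 and 182, and Mt1 and Mt2 varied together, so nothing is read from the count. Mt1 in control mouse 181 was 6.93 CPM, with a gap to the next mouse of 0.930 of the range of its group. Mt1 in Mc1r LKO mouse 182 was 177 CPM, with a gap of 0.864, and Mt2 in the same mouse was 155 CPM, with a gap of 0.921. Mtf1 in control mouse 181 was 19.0 CPM, with a gap of 0.830, just past the critical value. Mice 181 and 182 were also the 2 that lay apart on the first principal component of all genes, and a cause was not tested.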

How the results depend on the processing

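The counts past the thresholds moved with the filter and the tool. At an adjusted p of 0.05, 0 genes passed by edgeR with the main filter, 1 with all genes holding at least 1 count in any mouse kept and 16 by DESeq2, and 0 passed without any single mouse. At the unadjusted p, 711 genes passed, 1140 with that looser filter, where 24087 genes were tested, and 606 to 931 with a mouse left out. With library size scaling alone the share of higher genes among these calls fell from 49.8% to 25.3% and the median of all genes moved by -0.04. Among the other metal genes, 1 passed (Hmox1), 2 by limma-voom (Hmox1 and Cox17), and 0 to 2 with a mouse left out, where the 2 were Sod1 and Ccs without mouse 159. Cox17, Sod1 and Ccs are named after their values were seen, and the cause of these moves was not tested. The other zinc transporters gave 0 throughout. Mt1 and Mt2 stayed above 0 under every alternative run, with log2 differences of 1.51 to 2.69 and 1.39 to 3.09 when a mouse was left out, and the relation of Mt1 with Mt2 stayed at 0.92 to 1.00. No relation of the other 7 genes with the metallothioneins passed the adjusted threshold under the alternatives run, although several changed sign without mouse 182. They also depended on the scaling. With library size scaling alone r fell from 0.41 to 0.004 for Slc39a8 and from 0.47 to 0.24 for Slc30a1, and no r changed sign. No paired analysis was possible because the sample labels give a mouse number and a genotype but no litter or cage.

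With 4 mice per group, Mc1r at 0 counts in every library, and mice 181 and 182 far from the others, the levels of these 9 genes describe these 8 livers. Counting depth was no limit for Mt1 (133 counts or more per mouse), and it limited Slc39a5 (24 counts in mouse 181).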
